A study of Arabidopsis thaliana with 6 samples.

Results

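The genes described here are the alpha expansins of Arabidopsis thaliana that the array annotation resolves singly. They were taken as every probe set annotated to 1 gene whose symbol is EXPA followed by a number, with the probe set of the highest mean standing for a gene. The rule found 10 genes, each with 1 probe set, of 13356 genes with a probe set of their own. They are EXPA4, EXPA7, EXPA8, EXPA9, EXPA15, EXPA16, EXPA18, EXPA20, EXPA21 and EXPA24. RefSeq (assembly TAIR10.1) lists 24 genes with such a symbol, 1 of them a pseudogene. Another 2 probe sets are shared, one by EXPA22 and EXP26 and one by EXPA23 and EXPA25, and were not counted as members; the remaining alpha expansins were not analysed here.

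The series addresses how the respiratory burst takes part in thermotolerance. RNA of whole Col-0 seedlings was hybridised to the ATH1 array of Affymetrix in 6 groups, made of the AtrbohB mutant and of wild type, each kept at 20, 30 or 40 °C. The mutant carries a dSpm transposon in At1g09090, a gene for an NADPH oxidase homologue, and is 1 insertion line. All seedlings were grown on MS medium with 16 hour days and then kept floating on distilled water at the stated temperature. Seedling age and the length of the treatment are not given in the labels. Each group is 1 array of 90 pooled plants, so no group has replicates. The 40 °C mutant array is titled as a repeat, of what is not said. No probe set is annotated to At1g09090 alone, and the transcript of the disrupted gene was not analysed here.

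Expansins are secreted proteins that loosen the plant cell wall at acid pH without cutting its polymers, which lets a cell extend under turgor. Alpha expansins are the largest of the expansin families, ahead of the beta expansins and the expansin-like proteins. In seedlings they are known for their part in the growth of hypocotyls, leaves, roots and root hairs, and single members are often expressed in particular organs or cells.

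Signals are on a linear scale that the authors set to a common level on every array. The medians of the arrays lay between 38.5 and 44.0. Values at or below 13.7, the 25th percentile of all 6 arrays pooled, were raised to that floor before log2 was taken, and 22.9% to 27.6% of probe sets lay at the floor of an array. The floor is not a detection limit. As a check of the tissue, 5 markers of green tissue (LHCB4.1, LHCB4.2, RCA, PRK and SBPASE) had signals of 1521.7 or more on all arrays, and PYK10, a beta-glucosidase of root and hypocotyl, was at 789.9 or more.

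Of the 10 alpha expansins, 8 were above the floor on at least 2 arrays and were tested. EXPA21 and EXPA24 were at the floor on all 6 arrays. EXPA21 had 1.8, 2.8 and 3.2 at 20, 30 and 40 °C in the mutant and 2.9, 2.3 and 2.5 in wild type. EXPA24 had 3.6, 2.9 and 3.8 in the mutant and 3.5, 3.0 and 9.5 in wild type. Both genes belong to a run of 6 adjacent alpha expansin genes on chromosome 5, and the shared probe sets of the other 4 genes of that run were below the floor on every array as well, at 0.5 to 11.6. Of the 8 tested members, 7 were above the floor on all 6 arrays. EXPA16 was above it on 3 arrays, which include both 30 °C arrays, so it entered the test mainly through the temperature at which it was high.

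**Figure D1:**
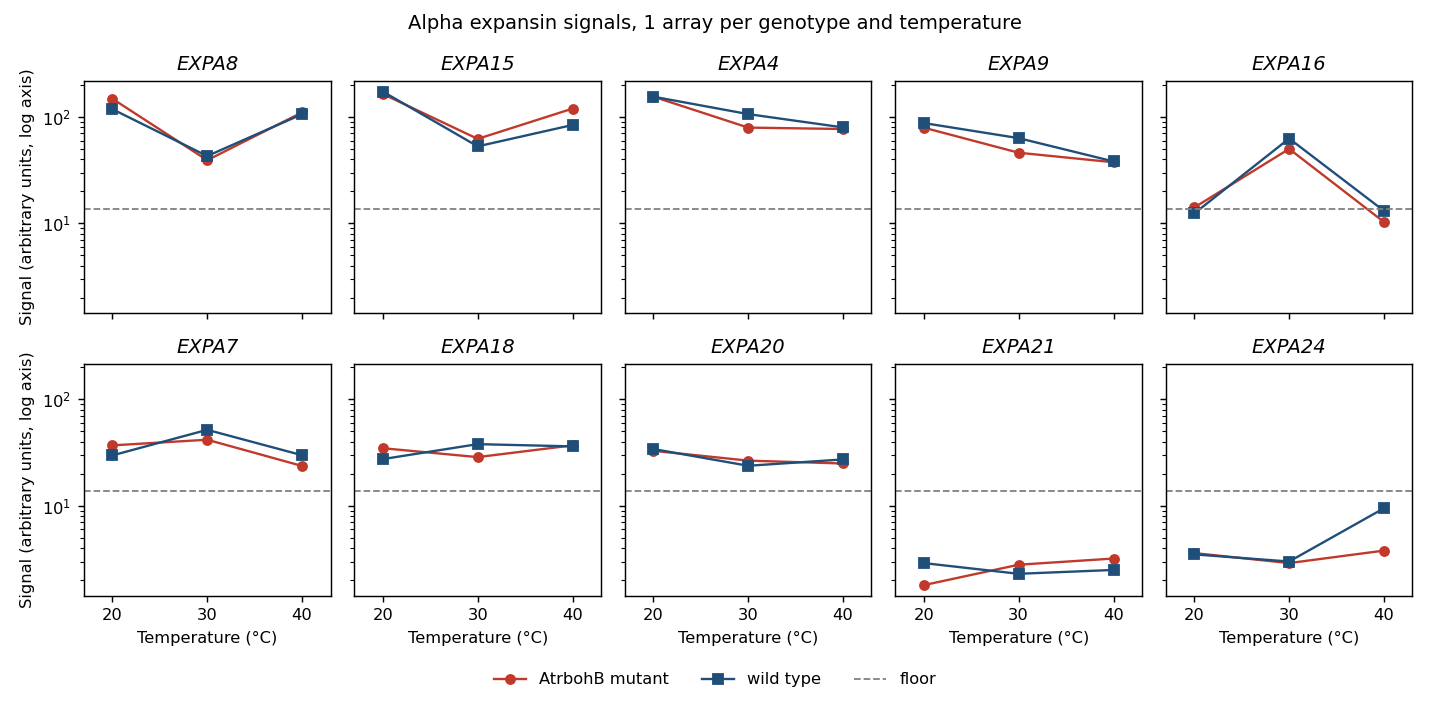
Signal of each of the 10 alpha expansins (log axis, arbitrary units) against temperature, with red circles for the AtrbohB mutant, blue squares for wild type, 1 array per point, and the floor of 13.7 as a dashed line. EXPA8 and EXPA15 dip at 30 °C, and EXPA4 and EXPA9 are highest at 20 and lowest at 40 °C. EXPA16 peaks at 30 °C, and EXPA21 and EXPA24 lie below the floor throughout.

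The comparison of 30 with 20 °C asks how seedlings respond to moderate warmth. Here 4 of the 8 tested alpha expansins fell and 1 rose, while EXPA7, EXPA18 and EXPA20 did not pass the test. The falls were those of EXPA8, EXPA15, EXPA4 and EXPA9, and the rise was that of EXPA16. Over all 18227 tested probe sets, 20.7% were called lower, 14.9% higher and 35.6% in either direction. These were 3769 lower and 2711 higher; with each array centred on its median they were 3153 lower and 3001 higher. The median change of the tested alpha expansins was -0.52 on the log2 scale, beside -0.07 for all tested probe sets. Signals at 30 °C and at 20 °C did not overlap for 7 of the 8 members, and for 69.2% of all tested probe sets. A temperature effect compares 2 arrays with 2, 1 of each genotype, in limma's additive fit of genotype and temperature, and calls are at an adjusted p under 0.05.

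Between 40 and 20 °C, a comparison that addresses strong heat, 3 of the 8 tested members fell and 0 rose. EXPA4, EXPA9 and EXPA15 fell, and only these 3 of the 8 had an unadjusted p under 0.05 in limma, as did 40.0% of all tested probe sets. Of all tested probe sets, 14.7% were called lower, 13.5% higher and 28.1% in either direction. These were 2674 lower and 2456 higher; with each array centred on its median 2907 were lower and 1737 higher. The median change was -0.34 over the tested members and 0.08 over all tested probe sets. Signals at 40 °C and at 20 °C did not overlap for 6 of the 8 members, and for 66.9% of all tested probe sets.

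Between 40 and 30 °C, 2 members rose, EXPA8 and EXPA15, and 2 fell, EXPA16 and EXPA7. In that comparison 24.9% of all tested probe sets were called higher, 17.8% lower and 42.7% in either direction. These were 4538 higher and 3243 lower; after centring they were 3214 higher and 3817 lower. The median change was -0.09 over the tested members and 0.15 over all tested probe sets, and centring brought the second of these to 0.03. Signals did not overlap for 5 of the 8 members, and for 72.7% of all tested probe sets.

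**Figure D2:**
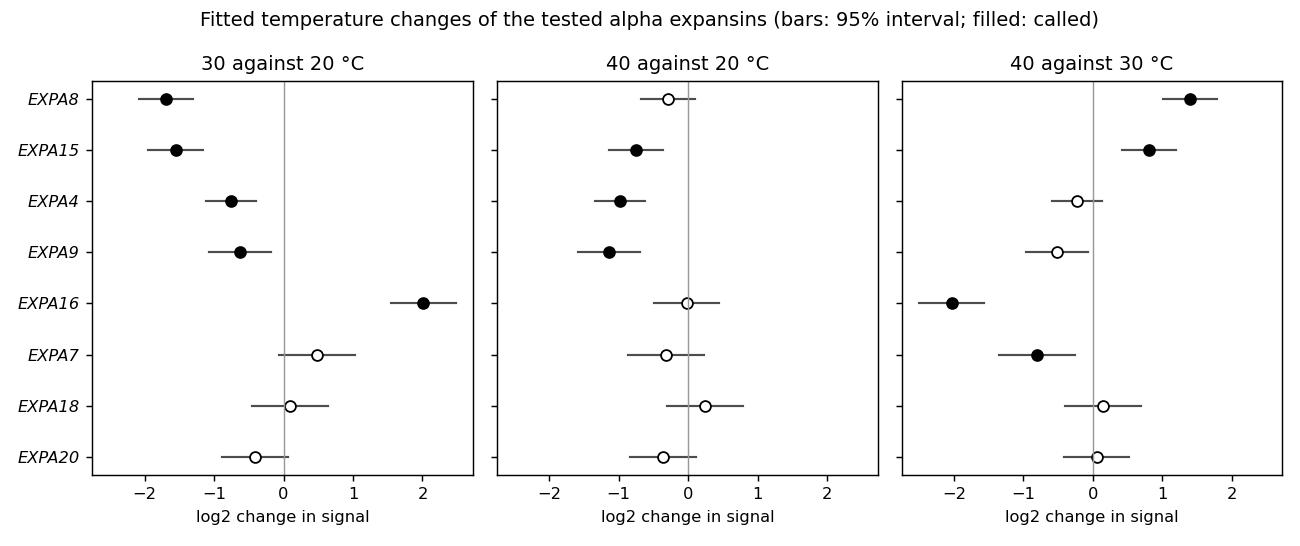
Fitted log2 change of the 8 tested alpha expansins (dots) with its unadjusted 95% interval (bars) for 30 against 20, 40 against 20 and 40 against 30 °C, filled where limma's adjusted p was under 0.05. At 30 against 20 °C, EXPA8 and EXPA15 lie near -1.69 and -1.56 and EXPA16 at 2.01; between 40 and 30 °C these 3 genes lie on the opposite side of 0.

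The fit was repeated without each array, with 1 residual degree of freedom remaining. In each of these fits fewer of all tested probe sets were called too, in all 3 temperature comparisons. Whether the alpha expansins lost calls more or less often than other probe sets was not tested. The ranges over all tested probe sets are given with the dependence on the processing. A call lost in such a fit need not rest on the omitted array. Neither 40 °C array enters the change of 30 against 20 °C, yet EXPA4 and EXPA9 lost that call without either. Their log2 changes stayed at -0.75 and -0.63, with SE of 0.15 and 0.17 beside 0.15 and 0.19 with all arrays. At 30 against 20 °C, the 5 called members came to 3 without wild type at 40 °C or without any 1 of the 3 mutant arrays, and to 4 without wild type at 20 or at 30 °C. At 40 against 20 °C, the 3 came to 0 without wild type at 40 °C or the mutant at 40 °C, and to 1 without wild type at 20 °C or the mutant at 20 °C. Between 40 and 30 °C, the 4 came to 2 without wild type at 30 °C, the mutant at 30 °C or the mutant at 40 °C. Over the 6 fits the log2 change of EXPA8 lay between -1.87 and -1.51 at 30 against 20 °C. At 40 against 30 °C it lay between 1.24 and 1.56. That of EXPA15 lay between -1.78 and -1.33 at 30 against 20 °C. For EXPA16 it lay between 1.84 and 2.18 at 30 against 20 °C, and between -2.20 and -1.86 at 40 against 30 °C. The filter of all 6 arrays was kept in these fits, so EXPA16 was still selected mainly through its 30 °C arrays. Both of its 40 °C arrays were set to the floor, so these fits lend its calls no support.

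EXPA8 and EXPA15 are described together because both were low at 30 °C, a grouping made after their values were seen. EXPA8 (AT2G40610) had signals of 148.3, 39.2 and 110.3 at 20, 30 and 40 °C in the mutant and 118.3, 42.9 and 106.1 in wild type. Both 30 °C arrays were far below the other 4, and the 40 °C arrays were a little below the 20 °C arrays. At 30 against 20 °C EXPA8 fell 3.23-fold, a log2 change of -1.69 ± 0.17 (SE, 2 arrays against 2; limma adjusted p = 0.000142). It was 2.64-fold higher at 40 than at 30 °C, by 1.40 ± 0.17 (limma adjusted p = 0.000326). At 40 against 20 °C its change was -0.29 ± 0.17 and did not pass the test (limma adjusted p = 0.229; 95% interval -0.68 to 0.09).

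EXPA15 (AT2G03090) had signals of 164.3, 62.2 and 119.7 at 20, 30 and 40 °C in the mutant and 173.0, 52.9 and 84.0 in wild type. The arrays of the 3 temperatures did not overlap, with 30 °C lowest, 40 °C between and 20 °C highest. It fell at 30 against 20 °C by 1.56 ± 0.17 on the log2 scale, which is 2.94-fold (limma adjusted p = 0.000243). Between 40 and 30 °C it rose by 0.81 ± 0.17 (limma adjusted p = 0.0060). With an array left out it rose by 0.59 to 1.02, but not every such fit kept the call. At 40 against 20 °C it remained lower, by -0.75 ± 0.17 (limma adjusted p = 0.0134), a call that was kept only without the mutant at 20 °C among the 6 fits that left out an array. EXPA15 had the largest difference between the genotypes at 40 °C, where the mutant was 0.51 above wild type on the log2 scale.

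EXPA4 and EXPA9 are described together because both were highest at 20 and lowest at 40 °C in both genotypes. This grouping was also made after their values were seen. EXPA8, EXPA15 and EXPA20 were highest at 20 °C in both genotypes as well. EXPA4 (AT2G39700) had signals of 155.0, 79.4 and 77.0 at 20, 30 and 40 °C in the mutant and 155.0, 106.3 and 79.7 in wild type. The 20 °C arrays lay above the other 4, while the 30 and 40 °C arrays overlapped. EXPA4 fell at 30 against 20 °C (-0.75 ± 0.15 on the log2 scale, limma adjusted p = 0.0062) and at 40 against 20 °C (-0.98 ± 0.15, limma adjusted p = 0.0025). The fall at 30 °C was called in 2 of the 6 fits that left out an array, with a largest adjusted p of 0.105, and that at 40 °C in 3 of the 6, with a largest adjusted p of 0.112. Its change between 40 and 30 °C was -0.23 ± 0.15 (limma adjusted p = 0.267).

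EXPA9 (AT5G02260) had signals of 79.3, 46.1 and 37.5 at 20, 30 and 40 °C in the mutant and 87.6, 63.2 and 38.2 in wild type. The arrays of the 3 temperatures did not overlap and were lower at each higher temperature. EXPA9 fell at 30 against 20 °C by 0.63 ± 0.19 on the log2 scale (limma adjusted p = 0.0357), a call that none of the 6 fits with an array left out kept. It fell at 40 against 20 °C by 1.14 ± 0.19, which is 2.20-fold (limma adjusted p = 0.0035), and 2 of the 6 fits kept this call. Between 40 and 30 °C its change of -0.51 ± 0.19 did not pass (limma adjusted p = 0.0635), and was called in 7 of 8 other settings of the scaling, floor, filter and prior but in 0 of the 6 fits with an array left out.

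The root marker was called lower at 30 and at 40 against 20 °C, as were EXPA4, EXPA9 and EXPA15. EXPA7 and EXPA18, described below as root hair expansins, were not called at 40 against 20 °C. Their log2 changes there were -0.32 ± 0.24 and 0.24 ± 0.24. PYK10 had 2684.3, 2158.4 and 789.9 at 20, 30 and 40 °C in the mutant and 2587.4, 1993.5 and 849.8 in wild type, with the 40 °C arrays lowest. On the log2 scale its change was -0.35 ± 0.11 at 30 against 20 °C (limma adjusted p = 0.0375) and -1.69 ± 0.11 at 40 against 20 °C (limma adjusted p = 2.17e-05), both called. The summed signal of the 5 green tissue markers was 17132.4 in the mutant and 16729.5 in wild type at 40 °C, against 12778.2 in the mutant and 11997.8 in wild type at 20 °C, and 3 of the 5 rose at 40 against 20 °C. At 30 °C the sum was 13067.1 in the mutant and 11161.4 in wild type. Of the 5, 2 fell at 30 against 20 °C. PRK fell by 0.41 ± 0.11 and SBPASE by 0.33 ± 0.11 on the log2 scale (limma adjusted p = 0.0209 and 0.0453). LHCB4.1, LHCB4.2 and RCA were not called there, with changes of 0.01, 0.13 and 0.25. Of all tested probe sets, 20.7% were called lower at 30 against 20 °C and 13.5% higher at 40 against 20 °C. In whole seedlings, fewer cells of a type and less RNA per cell cannot be told apart. The part of these markers in the falls of EXPA4, EXPA9 and EXPA15 was not tested.

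EXPA16 (AT3G55500) was high at 30 °C. Its signals were 14.1, 50.1 and 10.3 at 20, 30 and 40 °C in the mutant and 12.4, 62.7 and 13.1 in wild type. Both 30 °C arrays lay well above the floor, and of the other 4 arrays only the mutant at 20 °C was above it, by a small margin. EXPA16 was at least 4.03-fold higher at 30 than at 20 °C (2.01 ± 0.20 on the log2 scale, limma adjusted p = 0.000164). It was at least 4.09-fold lower at 40 than at 30 °C (-2.03 ± 0.20, limma adjusted p = 0.000132). Both sizes depend on the floor. With a floor at the 40th percentile, 27.9, they were 1.01 and -1.01 on the log2 scale (limma adjusted p = 0.0010 and 0.00090). At that floor its arrays at 20 and 40 °C were all set to the same value. EXPA16 then passed the filter through its 30 °C arrays alone, so these p-values lend its calls no support. In the main fit both 40 °C arrays were set to the floor and could not differ between the genotypes. The adjusted p-values of the main fit rest in part on that. No fold is given for 40 against 20 °C, where 3 of the 4 arrays were at the floor.

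EXPA7 and EXPA18 are known as root hair expansins, expressed in the root epidermal cells that form hairs. EXPA7 (AT1G12560) had signals of 37.0, 41.8 and 23.7 at 20, 30 and 40 °C in the mutant and 29.8, 51.8 and 29.9 in wild type. The 30 °C arrays were the highest in both genotypes, and the 20 and 40 °C arrays overlapped. EXPA7 fell between 40 and 30 °C by 0.81 ± 0.24 on the log2 scale, which is 1.75-fold (limma adjusted p = 0.0260). Of the 6 fits with an array left out, 2 kept this call, and it was lost with no floor and no filter (adjusted p = 0.0986). At 30 against 20 °C EXPA7 had 0.49 ± 0.24 (limma adjusted p = 0.152; 95% interval -0.06 to 1.03). At 40 against 20 °C it had -0.32 ± 0.24 (limma adjusted p = 0.353).

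EXPA18 (AT1G62980) had signals of 34.8, 28.7 and 37.0 at 20, 30 and 40 °C in the mutant and 27.5, 38.0 and 36.2 in wild type. The 40 °C arrays lay above both 20 °C arrays, and the 30 °C arrays overlapped with both temperatures. EXPA18 had the narrowest range of the 8 tested members, 1.38-fold from its lowest to its highest array, and passed no test. Its fitted changes were 0.09 ± 0.24 at 30 against 20 °C, 0.24 ± 0.24 at 40 against 20 °C and 0.15 ± 0.24 at 40 against 30 °C. The 95% interval at 40 against 20 °C was -0.31 to 0.79, so a change of up to that size is not excluded for EXPA18. Of 33 root hair genes listed for comparison, 1 had a probe set of its own: AT2G14760, with 24.2, 3.9 and 2.9 in the mutant and 7.9, 3.4 and 3.5 in wild type, was above the floor on 1 array and was not tested.

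EXPA20 (AT4G38210) had signals of 32.9 in the mutant and 34.2 in wild type at 20 °C, and of 23.8 to 27.3 on the other 4 arrays. The 20 °C arrays were the highest in both genotypes, but its changes of -0.41 ± 0.21 at 30 against 20 °C (limma adjusted p = 0.159) and -0.36 ± 0.21 at 40 against 20 °C (limma adjusted p = 0.229) did not pass the test. Between 40 and 30 °C it had 0.05 ± 0.21 (95% interval -0.42 to 0.53). Over the 6 arrays, 6 of the 8 tested alpha expansins spanned at least 1 on the log2 scale, as did 38.2% of all tested probe sets; EXPA18 and EXPA20 did not.

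The comparison of mutant with wild type asks whether loss of this oxidase changes expression over the 3 temperatures. None of the 8 tested members passed the test, and of all 18227 probe sets 0% were called, with 735 (4.03%) at an unadjusted p under 0.05; no tested member was among these. The fitted difference was largest for EXPA15 (0.22 ± 0.14 on the log2 scale, SE, 3 arrays against 3; limma adjusted p = 0.978; 95% interval -0.10 to 0.54) and for EXPA9 (-0.21 ± 0.16, limma adjusted p = 0.978; 95% interval -0.57 to 0.15). EXPA4 had -0.16 (95% interval -0.45 to 0.13), EXPA7 -0.11 (-0.56 to 0.34), EXPA16 -0.09 (-0.48 to 0.29) and EXPA8 0.08 (-0.23 to 0.40). EXPA18 and EXPA20 had -0.01 each, with intervals of -0.46 to 0.44 and -0.39 to 0.38. The median over the tested members was -0.05, beside -0.01 for all tested probe sets.

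At single temperatures, which rest on 1 array each, no tested member differed 2-fold between the genotypes. A difference of that size was found for 0.625% of tested probe sets at 20 °C, for 0.642% at 30 °C and for 1.55% at 40 °C. On the 20 °C arrays the mutant was highest above wild type for EXPA18 (0.34), EXPA8 (0.33) and EXPA7 (0.31), and EXPA4 had 155.0 on both arrays. At 30 °C, 6 of the 8 were lower in the mutant, with EXPA9 (-0.46), EXPA4 (-0.42) and EXPA18 (-0.40) farthest below, and EXPA15 and EXPA20 were higher. The median of the 8 at 30 °C was -0.32, beside -0.02 for all tested probe sets, of which 53.9% were lower in the mutant. The mutant array at 30 °C had the lowest scan background in the labels, 63.3, where the other arrays had 72.5 to 87.2, and the lowest median signal, 38.5, beside 41.0 in wild type. With centring 6 of the 8 were still lower, with a median of -0.23; the part of the scan in this difference was not tested.

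**Figure D3:**
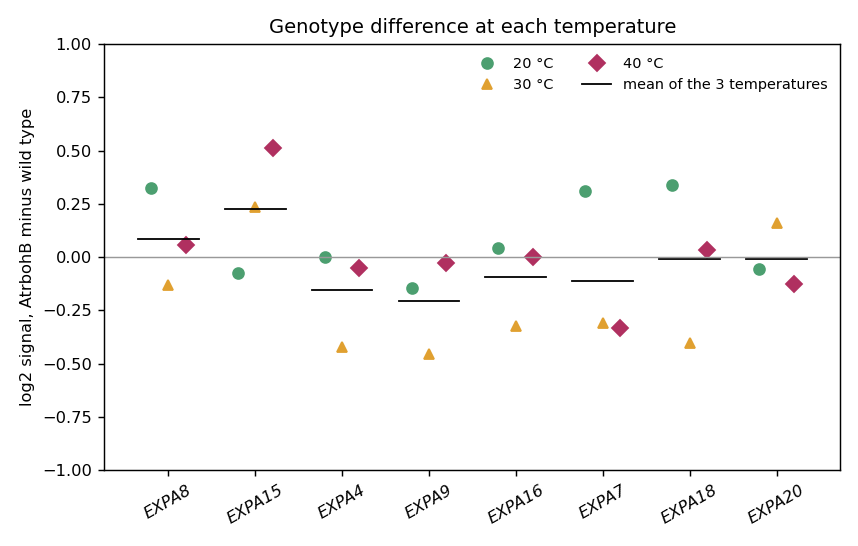
Difference in log2 signal, AtrbohB minus wild type, of the 8 tested alpha expansins at 20 °C (circles), 30 °C (triangles) and 40 °C (diamonds), each from 1 array per genotype, with the mean of the 3 temperatures as a black line. All points lie between -0.46 and 0.51, and for 6 of the 8 genes the 30 °C point is below 0.

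The temperature changes of the called members in each genotype are given as a description. A gene whose genotypes changed in opposite directions could hardly be called, since their disagreement is the residual of the additive fit. For EXPA8 the log2 change at 30 against 20 °C was -1.92 in the mutant and -1.46 in wild type, and for EXPA15 it was -1.40 in the mutant and -1.71 in wild type. EXPA4 had -0.97 in the mutant and -0.54 in wild type, and EXPA9 had -0.78 in the mutant and -0.47 in wild type. EXPA16 had 1.83 in the mutant and 2.19 in wild type, where the floor limits the wild type size. At 40 against 20 °C, EXPA4 had -1.01 in the mutant and -0.96 in wild type, EXPA9 -1.08 in the mutant and -1.20 in wild type, and EXPA15 -0.46 in the mutant and -1.04 in wild type. With 1 array per group the difference between the genotypes in these responses has no test. It was under 2-fold for all 8 members in each of the 3 temperature comparisons, where 3.21%, 3.50% and 3.62% of tested probe sets reached 2-fold at 30 against 20, 40 against 20 and 40 against 30 °C.

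**Figure D4:**
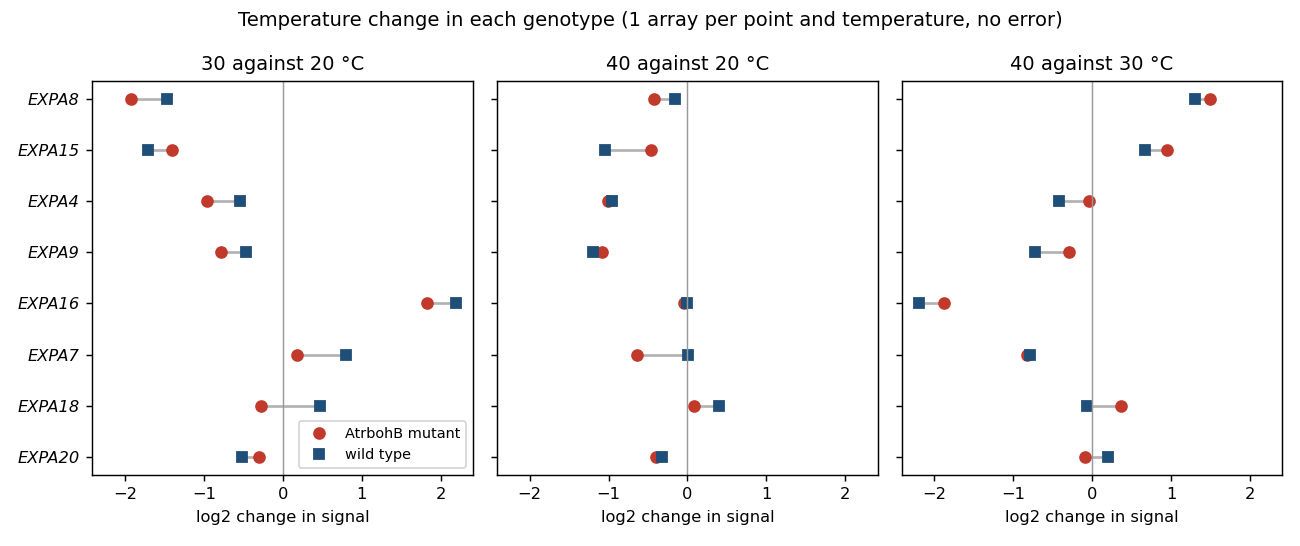
Log2 change in signal of the 8 tested alpha expansins between temperatures in the AtrbohB mutant (red circles) and in wild type (blue squares), from single arrays and therefore without error bars. The pair of points lies on the same side of 0 for EXPA8, EXPA15, EXPA4, EXPA9 and EXPA16 at 30 against 20 °C and on opposite sides for EXPA18.

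Related cell wall families gave other values on the same arrays. All 8 beta expansins and expansin-like genes with a probe set of their own were tested: at 30 against 20 °C 3 rose and 2 fell, and at 40 against 20 °C 1 rose and 4 fell. Their median changes were 0.12 at 30 against 20 °C and -0.45 at 40 against 20 °C. Over all tested probe sets, 14.9% were called higher and 20.7% lower at 30 against 20 °C, with a median of -0.07. At 40 against 20 °C 13.5% were called higher and 14.7% lower, with a median of 0.08. The beta expansin EXPB3 had signals of 196.2, 41.2 and 104.7 at 20, 30 and 40 °C in the mutant and 202.7, 55.7 and 98.7 in wild type, low at 30 °C as in EXPA8 and EXPA15. It fell at 30 against 20 °C by 2.06 ± 0.17 on the log2 scale (limma adjusted p = 5e-05) and rose between 40 and 30 °C by 1.09 ± 0.17 (limma adjusted p = 0.0012). The 3 expansin-like A genes were high at 30 °C, as in EXPA16. EXLA1 and EXLA2 rose by 3.76 ± 0.38 and 3.41 ± 0.18 at 30 against 20 °C, and EXLA3 by at least 5.20-fold, since its 20 °C signals were under the floor in the mutant and in wild type (limma adjusted p under 0.05 for each).

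The xyloglucan endotransglucosylase/hydrolases (XTH) cut and rejoin xyloglucan, a polymer that links cellulose in the wall. RefSeq lists 30 such genes by symbol, of which 9 had a probe set of their own and 6 were tested. At 30 against 20 °C 4 rose and 1 fell, with a median of 2.17 over the tested genes. Of all tested probe sets, 14.9% were called higher and 20.7% lower there. XTH18 had signals of 45.5, 1690.8 and 59.3 at 20, 30 and 40 °C in the mutant and 52.0, 1573.0 and 93.3 in wild type, a rise of 5.07 ± 0.17 at 30 against 20 °C on the log2 scale (limma adjusted p = 1.09e-06). XTH33, XTH16 and XTH19 rose by 3.36 ± 0.36, 2.73 ± 0.24 and 1.60 ± 0.14. At 40 against 20 °C 1 XTH gene rose and 4 fell, and between 40 and 30 °C 1 rose and 5 fell. In these comparisons 13.5% and 24.9% of all tested probe sets were called higher, and 14.7% and 17.8% lower. The proton pumps that acidify the wall and the cellulose synthases, also listed for comparison, had 0 genes with a probe set of their own in the annotation and were not analysed here.

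**Figure D5:**
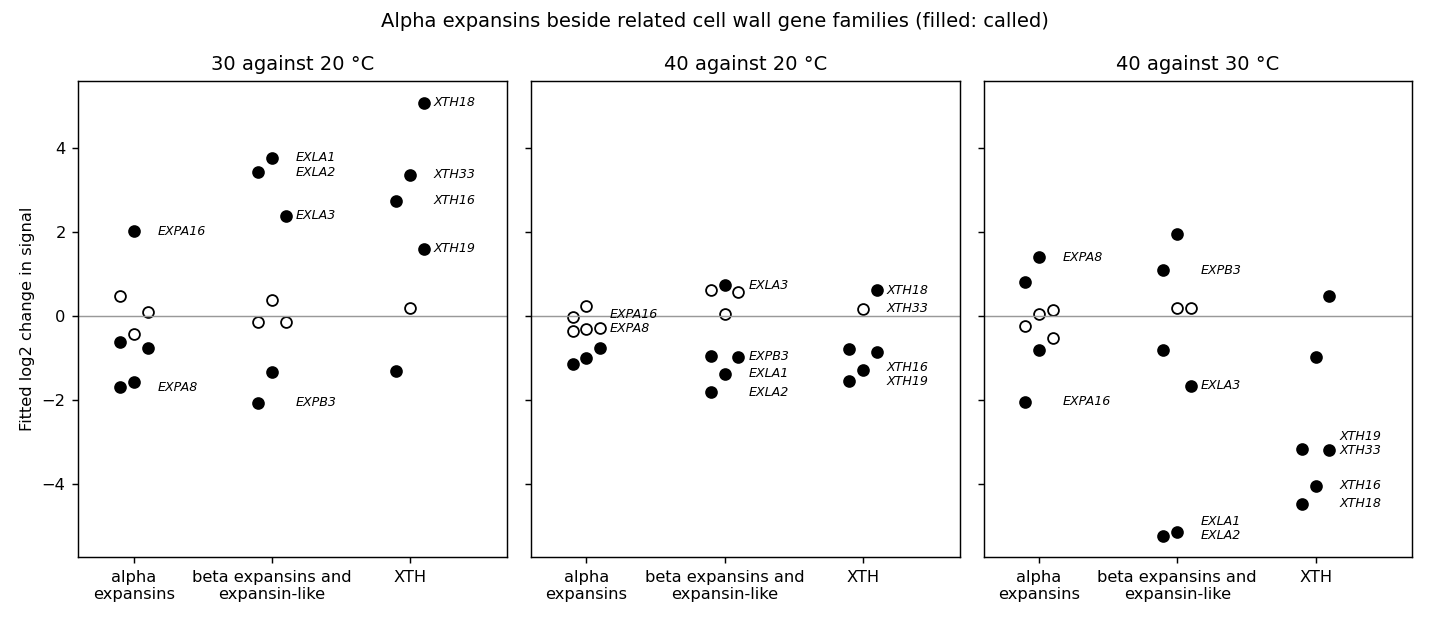
Fitted log2 change of the tested alpha expansins (8 genes), beta expansins and expansin-like genes (8) and XTH genes (6) in the 3 temperature comparisons, filled where called, with labels beside EXPA8, EXPA16 and the named companions. At 30 against 20 °C the alpha expansins lie between -1.69 and 2.01, and XTH18 reaches 5.07.

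For the 3 members with the widest range, the genes of most similar profile were sought among 3717 tested genes that spanned at least 1 on the log2 scale, by Pearson's r over the 6 arrays. The arrays fall by temperature, and many genes share such a profile: r was above 0.95 for 233 genes with EXPA8, 103 with EXPA15 and 276 with EXPA16. Nearest to EXPA8 were UGT76E11, a glycosyltransferase (r = 0.998), AT1G73390 (0.996) and PANB2, an enzyme of pantothenate synthesis (0.995). UGT76E11 had 94.3, 40.5 and 78.5 at 20, 30 and 40 °C in the mutant and 81.6, 40.2 and 78.8 in wild type. Nearest to EXPA15 were AT2G33850 (0.996), AT1G80750 (0.995) and AT5G26790 (0.992). Nearest to EXPA16 were AT5G65610, AT2G38250 and AT5G58750, with r of 0.9996 or more; all 3 were below the floor on all 20 and 40 °C arrays, so their r compares little more than the 30 °C arrays with the floor.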

How the data were processed

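Total RNA of 6 pools of seedlings was hybridised to 1 Affymetrix ATH1 array each, per the labels' protocols. The deposited values are linear probe-set intensity, scaled by the authors: leaving out the top and bottom 2% of an array, its values average 100. The summary software is not given in the sources used here. Of 22810 probe sets, 64 controls were left out. By the platform annotation 13513 probe sets have 1 gene, 503 have several and 8730 have none listed; symbols were updated by gene number through RefSeq TAIR10.1, which matched 13436 of them and all 10 alpha expansins.

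Values were floored and put on the log2 scale, and the 18227 probe sets that exceeded the floor on 2 or more arrays entered limma 3.58.1, run under R 4.3.3 (additive genotype and temperature, eBayes with trend, 2 residual and 6.08 prior degrees of freedom), two-sided, with Benjamini-Hochberg adjustment over all probe sets. Array noise and any departure from additivity share the 2 residual degrees of freedom. The number of arrays limits the precision, and the spread between these pools may be technical in part. The fitting code was run on simulated data as a check of the code, which says nothing of these calls. Figures used matplotlib 3.10.9.

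The members and the companion lists were chosen with earlier results of these data known. The rule named every member and 3 genes of similar profile for each of the 3 widest members. It also named up to 4 genes of each companion list by the size of their largest temperature change. Outside that rule, RCA was named as a green tissue marker and AT2G14760 as the only root hair gene measured. As alternatives, arrays were quantile normalized or centred on their median, the floor was raised to the 40th percentile or dropped with the filter, log2(value + 16) was used, all 6 arrays had to exceed the floor, limma was run with no trend or a robust prior, and single arrays were omitted.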

Additional observations from a re-analysis of the deposited data

Results flagged for a closer look

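With 1 array per group, the following genes had log2 changes of opposite sign in the 2 genotypes; the differences were not tested. EXPA7 at 40 against 20 °C had -0.64 in the mutant and 0.0048 in wild type, a difference of -0.65; the wild type value, from signals of 29.9 at 40 °C and 29.8 at 20 °C, is close to no change. EXPA18 at 30 against 20 °C had -0.28 in the mutant and 0.47 in wild type, a difference of -0.74. EXPA18 at 40 against 30 °C had 0.37 in the mutant and -0.07 in wild type, a difference of 0.44. EXPA20 at 40 against 30 °C had -0.09 in the mutant and 0.20 in wild type, a difference of -0.29. Among the named companions, XTH33 at 40 against 20 °C had -0.69 in the mutant and 1.03 in wild type, a difference of -1.73. Its 20 °C signals were 28.0 in the mutant and 14.3 in wild type, where 13.7 is the floor. RCA at 40 against 30 °C had -0.02 in the mutant and 0.34 in wild type, a difference of -0.36.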

How the results depend on the processing

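Of the results for the 8 tested alpha expansins, 12 were calls. These kept 43 of 72 values with an array left out and lost 29, and they kept 91 of 94 values under the other alternatives and lost 3. The 20 results that were not calls gained a call in 8 of 158 other alternatives and in 0 of 120 fits with an array left out, and 0 calls changed direction. The cause of these changes was not tested. A fit with an array left out loses the values of that array and 1 residual degree of freedom together. With single arrays left out, the members called came to 3 to 4 at 30 against 20 °C (5 with all arrays), 0 to 2 at 40 against 20 °C (3) and 2 to 4 at 40 against 30 °C (4), and the probe sets called to 2089 to 4340 (6480), 822 to 2800 (5130) and 2783 to 6653 (7781). Under the other alternatives the members called were 4 to 6, 2 to 3 and 3 to 5 in these comparisons. With no floor and no filter, 2675 probe sets were called at 40 against 20 °C, and EXPA9 at 30 against 20 °C (limma adjusted p = 0.0742), EXPA15 at 40 against 20 °C (0.0731) and EXPA7 at 40 against 30 °C (0.0986) lost their calls. For mutant against wild type 1 probe set was called with log2(value + 16) and 1 with the filter on all 6 arrays, neither a tested alpha expansin. EXPA16 leaves the test under that filter. The temperature effects are fitted with genotype as a term, so they already compare the temperatures within each genotype. No further pairing was possible because each group has 1 array, which leaves no replicate number to block on. The use of other probe sets of a member was not run, since each has only 1.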
